A study of Mus musculus with 18 samples.

Results

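Nonsense-mediated decay removes mRNAs whose translation stops too early, and its core factors are the UPF and SMG proteins. The 9 genes described here (Upf1, Upf2, Upf3a, Upf3b, Smg1, Smg5, Smg6, Smg8 and Smg9) were taken by their symbols as UPF and SMG genes, by a rule that uses no measured value, though earlier results of these data were known when they were chosen. Each was found by its symbol on 1 of the 55401 gene rows given per library. All 9 passed the filter on low values in every comparison.

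In this pathway UPF1, an RNA helicase, is loaded onto mRNAs at a terminating ribosome and is joined by UPF2 and UPF3, which bridge it to exon junction complexes left downstream by splicing. The kinase SMG1, held in check by its subunits SMG8 and SMG9, phosphorylates UPF1, and phosphorylated UPF1 recruits the endonuclease SMG6 and the adaptor SMG5, which helps to bring deadenylation and decapping enzymes. Splicing errors are a main source of premature stop codons, and mRNAs of several of the factors, UPF1, SMG1, SMG5 and SMG6 among them, are known to be decay targets themselves.

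RNA was taken from colon, lung and liver of C57BL/6N mice aged 7 weeks. The mice had received by mouth either RECTAS at 100 mg/kg body weight, suspended in 0.5% carboxymethyl cellulose (CMC), or the 0.5% CMC vehicle alone. RECTAS is a small molecule named as a rectifier of aberrant splicing. Doses were given 4 h apart, and organs were taken 8 h after the first dose. Polyadenylated RNA made up the libraries, 3 for each tissue and treatment and 18 in all, so the 6 groups were vehicle and RECTAS colon, lung and liver. Whether the 3 libraries of a group are 3 mice is not said in the labels, so each p-value reflects only the spread among these libraries, which may be technical.

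Levels are in TPM, the share of a library's transcripts after adjustment for gene length, from which the number of reads cannot be recovered. The precision that depth gives to a value is therefore unknown. Between 19836 and 25227 genes lay above 0 in a library, and no 2 libraries were identical. The tissue labels were borne out by marker genes: summed hepatocyte markers (Alb, Apoa1, Ttr, Fgb, Serpina1c) reached at least 88342.5 TPM in every liver library, lung epithelial markers at least 159829 TPM in every lung library and colon epithelial markers at least 16852 TPM in every colon library. Lung libraries held other tissue markers in uneven amounts. Hepatocyte markers summed to 16.5 to 1289 TPM in vehicle lung and 1.22 to 520 TPM in RECTAS lung, and cardiac muscle markers to 204 to 482 and 107 to 924 TPM. Smooth muscle markers of colon summed to 1419 to 4154 TPM under vehicle and 1280 to 2430 TPM under RECTAS. The part of these differences in any result was not tested. In bulk tissue, fewer cells of a type and less RNA per cell cannot be told apart.

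The genes are dispersed in the mouse genome (GRCm38). Upf1 (ENSMUSG00000058301) lies at chr8:70331525-70353278 on the minus strand and Upf3a (ENSMUSG00000038398) at chr8:13785615-13799193 on the plus strand. Upf2 (ENSMUSG00000043241) lies at chr2:5951469-6056703, plus strand, and Upf3b (ENSMUSG00000036572) at chrX:37091678-37110322, minus strand. The kinase gene Smg1 (ENSMUSG00000030655) occupies chr7:118131308-118243670 on the minus strand, and its subunit genes are Smg8 (ENSMUSG00000020495) at chr11:87077732-87086774, minus strand, and Smg9 (ENSMUSG00000002210) at chr7:24399619-24422778, plus strand. Of the effectors, Smg5 (ENSMUSG00000001415) lies at chr3:88336260-88362338 and Smg6 (ENSMUSG00000038290) at chr11:74925823-75164448, both on the plus strand. Exons of Upf1 overlap those of Cers1 and Gdf1 on the opposite strand, and exons of Smg6 overlap those of Srr and Gm12333. The library kit keeps strand, but whether the counting used it is not given in the sources used here, so the levels of Upf1 and Smg6 are uncertain to the extent that reads were shared.

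GENCODE M21 annotates transcripts of the nonsense-mediated decay type for 3 of the 9 genes (Smg1, Smg5 and Smg6), against 20.8% of all protein-coding genes. Retained-intron transcripts are annotated for 5 of the 9 (Upf3a, Smg1, Smg5, Smg6 and Smg9), against 41.5%. Gene-level TPM sums these transcripts with the coding ones and cannot show a shift between them.

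Promoter windows of 300 bases from RefSeq (GRCm38.p6), from 250 bases before each start to 50 bases after it, were matched for 9 of 9 genes. They were rich in GC, with a median of 66% against 52.7% over 32851 promoters, and held a median of 29 CpG dinucleotides against 7. Short motifs were searched on both strands. GGGCGG, the SP factor motif, occurred in 7 of 9 windows (35.7% of all promoters), and CCAAT, the NF-Y motif, in 4 (37.4%). CCGGAAG, an ETS motif, occurred in the window of Smg8 (8.86% of all promoters) and AAGATGGC, the YY1 motif, in that of Upf3b (2.75%). Neither the CRE motif TGACGTCA (1.79%) nor the TATA motif TATAAA (13.6%) was found (0 of 9 windows each). No motif searched is contained in another, and copies of 1 motif could overlap. A match is a description and not a binding site. Below are the 150 bases from 190 to 41 bases before the start for the 4 UPF genes, which form 2 of the pairs whose ratios are compared between tissues later (Upf1 with Upf2, and the paralogs Upf3a with Upf3b), 5′ to 3′ on the gene's strand. Capitals mark GGGCGG or CCAAT on either strand. The YY1 motif of Upf3b lies outside the stretch shown.
Upf1, chr8:70353320-70353469, minus strand: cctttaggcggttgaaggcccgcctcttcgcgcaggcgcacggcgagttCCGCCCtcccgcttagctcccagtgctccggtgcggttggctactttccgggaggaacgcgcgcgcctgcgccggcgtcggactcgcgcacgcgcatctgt
Upf2, chr2:5951279-5951428, plus strand: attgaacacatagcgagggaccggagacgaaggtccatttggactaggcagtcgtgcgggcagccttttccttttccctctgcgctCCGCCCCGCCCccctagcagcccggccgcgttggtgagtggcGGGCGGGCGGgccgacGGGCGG
Upf3a, chr8:13785425-13785574, plus strand: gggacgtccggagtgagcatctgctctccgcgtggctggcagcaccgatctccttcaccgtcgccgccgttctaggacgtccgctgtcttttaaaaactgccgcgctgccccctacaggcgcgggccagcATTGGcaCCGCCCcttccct
Upf3b, chrX:37110363-37110512, minus strand: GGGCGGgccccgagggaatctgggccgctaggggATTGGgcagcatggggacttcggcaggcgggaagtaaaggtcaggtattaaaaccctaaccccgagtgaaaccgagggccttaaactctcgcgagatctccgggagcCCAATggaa

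Upf2 has 5 copies of GGGCGG in this stretch and Upf1 has 1. Upf3a and Upf3b each hold GGGCGG once, with CCAAT once in Upf3a and in 2 places in Upf3b. Levels of the 4 genes, given next, were not tested against these letters.

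In vehicle libraries all 9 genes were expressed in every tissue, with the lowest mean TPM of each in liver. The helicase gene Upf1 stood at 28.0, 25.7 and 29.3 TPM in the 3 colon libraries, 28.3, 28.7 and 28.4 TPM in lung and 15.9, 18.5 and 19.0 TPM in liver. Upf2, whose product links UPF1 to UPF3, stood at 14.2, 12.4 and 12.7 TPM in colon, 19.5, 17.3 and 18.5 TPM in lung and 6.14, 5.65 and 6.43 TPM in liver. For both genes every liver library lay below every other library, and for Upf2 every lung library also lay above every colon library. Such gaps were common in TPM. Without overlap, 65% of 16715 genes were lower in liver than colon, 76.2% higher in lung than liver and 53.8% higher in lung than colon.

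The paralogs Upf3a and Upf3b encode adaptors that bind the exon junction complex, UPF3B being the stronger activator of decay. Upf3a gave 26.8, 30.9 and 31.2 TPM in vehicle colon, 28.2, 29.2 and 28.5 TPM in lung and 8.08, 9.17 and 8.62 TPM in liver. Upf3b gave 21.8, 18.7 and 21.8 TPM in colon, 26.1, 27.7 and 26.6 TPM in lung and 9.90, 9.28 and 9.12 TPM in liver. Upf3a was above Upf3b in every colon and lung library, while in liver each vehicle library had slightly more Upf3b.

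The kinase gene Smg1 was the most variable of the 9 between colon libraries, at 20.03, 27.5 and 18.9 TPM, against 14.2, 12.5 and 18.2 TPM in lung and 4.16, 4.54 and 5.70 TPM in liver. Its subunit gene Smg8 had the lowest mean in each tissue, at 5.40, 5.26 and 6.35 TPM in colon, 6.15, 6.70 and 8.16 TPM in lung and 3.34, 3.67 and 4.26 TPM in liver. Smg9, the other subunit gene, stood at 14.1, 13.5 and 14.1 TPM in colon, 15.4, 17.3 and 14.4 TPM in lung and 4.54, 7.30 and 6.11 TPM in liver. Colon and lung overlapped for Smg8, and lung lay above colon without overlap for Smg9, as it did for 53.8% of 16715 genes.

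The effector genes Smg5 and Smg6 differed in their tissue pattern. Smg5 stood at 34.96, 33.8 and 34.4 TPM in vehicle colon, 32.3, 34.9 and 27.8 TPM in lung and 11.7, 15.8 and 16.9 TPM in liver. Smg6, the endonuclease gene, stood at 13.5, 11.9 and 13.5 TPM in colon, 24.8, 25.1 and 22.7 TPM in lung and 9.37, 9.21 and 7.61 TPM in liver. In TPM lung was the high tissue for Smg6 in all of its libraries, whereas Smg5 overlapped between colon and lung.

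**Figure D1:**
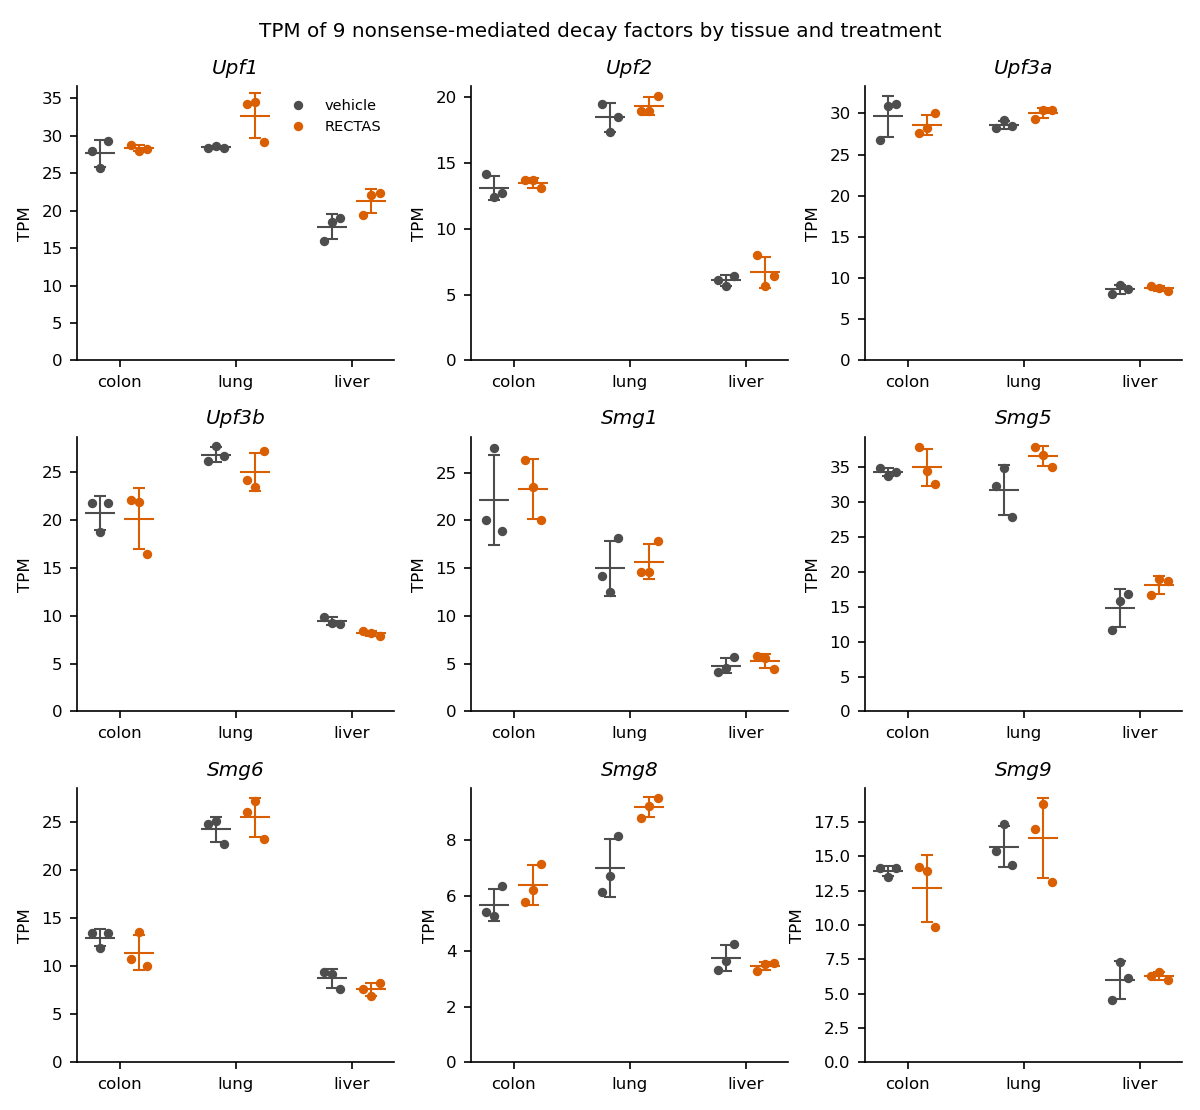
TPM (y axis, linear from 0) of each factor in colon, lung and liver (x axis) under vehicle (grey) and RECTAS (orange). Points are single libraries, the horizontal bar is the mean and the error bar the SD (n = 3). Liver points lie lowest for all 9 genes, Smg6 is highest in lung, and most vehicle and RECTAS points intermingle.

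The genes were ordered by mean TPM, which adjusts for gene length, and the places of Upf1 and Smg6 are subject to the limit on strand given above. Smg5 led in vehicle colon (34.4 ± 0.575, SD, n = 3) and its range did not overlap that of Upf3a, the next. Upf3a, Upf1, Smg1 and Upf3b followed with each neighbour overlapping the next. Smg9, Upf2 and Smg6, at 13.9 ± 0.352, 13.1 ± 0.939 and 13.0 ± 0.901 TPM, overlapped in turn, and Smg8 came last without overlap. In vehicle lung the ranges of Smg5, Upf3a and Upf1 overlapped in turn, Upf3b (26.8 ± 0.782) and Smg6 (24.2 ± 1.29) stood apart from their neighbours, and Upf2, Smg9 and Smg1 overlapped in turn above Smg8. In liver Upf1 (17.8 ± 1.66) and Smg5 (14.8 ± 2.72) overlapped at the top, Upf3b, Smg6 and Upf3a overlapped in turn below them, and Upf2, Smg9, Smg1 and Smg8 did so at the bottom. Among genes with a mean of at least 1 TPM, Smg5 sat at percentile 75.3 in colon, 72.5 in lung and 62.7 in liver, and Smg8 at 31.7, 32.2 and 26.4.

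Summed over the 9 genes, vehicle colon held 180 ± 1.72 TPM, lung 196 ± 3.17 TPM and liver 80.0 ± 5.94 TPM. Upf1 made up 15.4 ± 0.940% of that sum in colon, 14.5 ± 0.151% in lung and 22.3 ± 0.474% in liver. Smg1 went the other way, at 12.3 ± 2.65% in colon, 7.66 ± 1.60% in lung and 5.98 ± 0.719% in liver. Smg6 held 7.19 ± 0.494% in colon, 12.3 ± 0.523% in lung and 10.99 ± 1.86% in liver. These shares do not depend on how libraries are scaled.

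Tissues were compared on the log2(TPM + 1) scale, which understates changes of low genes, with limma and Benjamini-Hochberg adjustment over all genes, and a gene was called at an adjusted p under 0.05. On the TPM scale all 9 genes were called lower in vehicle liver than in vehicle colon, as were 63.8% of 16715 genes, but after median-ratio scaling 5 were called, Upf1, Smg6 and Smg8 higher and Upf3a and Smg1 lower. Median-ratio scaling divides each library by its typical ratio to the average library and so removes the difference of the median gene, which was -0.68 for liver minus colon. Of 16356 genes, 12060 were called after that scaling. Of all genes called, 20.2% were higher in liver on the TPM scale and 49.8% after the scaling. Relative to the typical gene, then, the 9 genes did not move together.

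Smg1 and Upf3a were lower in liver than in colon on both scales. Smg1 was 4.61-fold lower by mean TPM (log2 difference -1.99, SE 0.18, limma adjusted p = 5.80e-06) and -1.15 (SE 0.19, adjusted p = 0.000511) after median-ratio scaling. Upf3a was 3.44-fold lower (-1.67, SE 0.084, adjusted p = 1.08e-07) and -0.78 (adjusted p = 7.70e-05) after scaling. The direction of Upf1 depended on the scale, from -0.61 (SE 0.086, adjusted p = 0.000130) in TPM to 0.31 (adjusted p = 0.00296) after scaling, and so did that of Smg6, from -0.52 to 0.36. Smg8 went from -0.49 to 0.31. Upf2, Upf3b, Smg5 and Smg9 differed by -0.99, -1.06, -1.18 and -1.12 in TPM, and after scaling their values lay between -0.26 and -0.14 and were not called.

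Between vehicle lung and vehicle colon, 3 genes were called higher in lung (Upf2, Upf3b and Smg6, where 51% of genes were) and Smg1 lower (where 24.7% were), while after median-ratio scaling Smg6 was the one called higher and Upf1, Upf3a, Smg1 and Smg5 were called lower. After scaling 11846 of 16356 genes were called. The median gene was 0.35 higher in lung, and the higher share of all called genes went from 67.4% to 49.1% with scaling. Smg6 was 1.87-fold higher in lung, with a log2 difference of 0.85 (SE 0.10, adjusted p = 4.10e-05) in TPM and 0.45 (SE 0.11, adjusted p = 0.00411) after scaling. Upf2 differed by 0.47 (adjusted p = 0.00115) and Upf3b by 0.36 (adjusted p = 0.00341) in TPM, and by 0.075 and -0.040 after scaling. Smg9 was not called on either scale, at 0.16 in TPM (limma adjusted p = 0.338) and -0.23 after scaling. Smg1 differed by -0.53 (SE 0.18, adjusted p = 0.0233) in TPM and by -0.91 (adjusted p = 0.0022) after scaling. The TPM call of Smg1 ended without vehicle colon library 2 (-0.37, adjusted p = 0.0822), vehicle lung library 1 (-0.50, 0.0628) or vehicle lung library 2 (-0.42, 0.0890).

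Between vehicle lung and vehicle liver all 9 genes were called higher in lung on the TPM scale, as were 74.5% of genes, but after median-ratio scaling Upf2 and Upf3a were called higher in lung and Upf1 and Smg8 lower. After scaling 12545 of 16356 genes were called. The median gene differed by 1.10, and the higher share of called genes went from 84.7% to 51.9%. Upf3a was 3.32-fold higher in lung (log2 difference 1.62, and 0.34 after scaling, adjusted p = 0.0115). Upf1 was 1.60-fold higher in TPM (0.65) and lower by scaling (-0.67, SE 0.070, adjusted p = 1.71e-05). Smg6 was 2.77-fold higher in TPM (1.38) and was not called after scaling (0.095, limma adjusted p = 0.443).

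RECTAS libraries, which share no sample with the vehicle libraries, were compared between tissues in the same way. In TPM all 9 genes were called lower in liver than in colon (65.3% of 16707 genes). All 9 were also called higher in lung than in liver in TPM (75.6%). After median-ratio scaling Upf1 and Smg6 were called higher and Upf3a, Upf3b and Smg1 lower in liver than in colon. Of 16292 genes, 11967 were called there. Also after scaling, Upf3a was called higher and Upf1 and Smg5 lower in lung than in liver, where 12546 of 16292 genes were called. Liver against colon, Upf1 went from -0.40 in TPM to 0.59 after scaling (adjusted p = 0.000288) and Smg1 from -1.95 to -1.05 (adjusted p = 4.47e-05). Lung against colon in TPM, Upf2, Upf3b, Smg6 and Smg8 were called higher (52.3% of genes) and Smg1 lower (23.8%), and after scaling Smg6 was called higher and Upf1, Upf3a, Smg1 and Smg5 lower. Of 16292 genes, 11724 were called after scaling for lung against colon. Smg6 differed there by 1.10 in TPM and 0.64 after scaling. The lung-to-colon call of Upf3b under RECTAS (0.31, adjusted p = 0.0390) ended without RECTAS colon library 3 (0.17, adjusted p = 0.106), without RECTAS lung library 1, 2 or 3 (0.33, 0.35 and 0.25, with adjusted p of 0.0683, 0.0502 and 0.120) and without RECTAS liver library 1, 2 or 3 (adjusted p of 0.0506, 0.0529 and 0.0510). Without RECTAS lung library 3, Upf1 (0.27, adjusted p = 0.0164) and Smg9 (0.48, adjusted p = 0.0186) were called higher in lung than in colon.

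**Figure D2:**
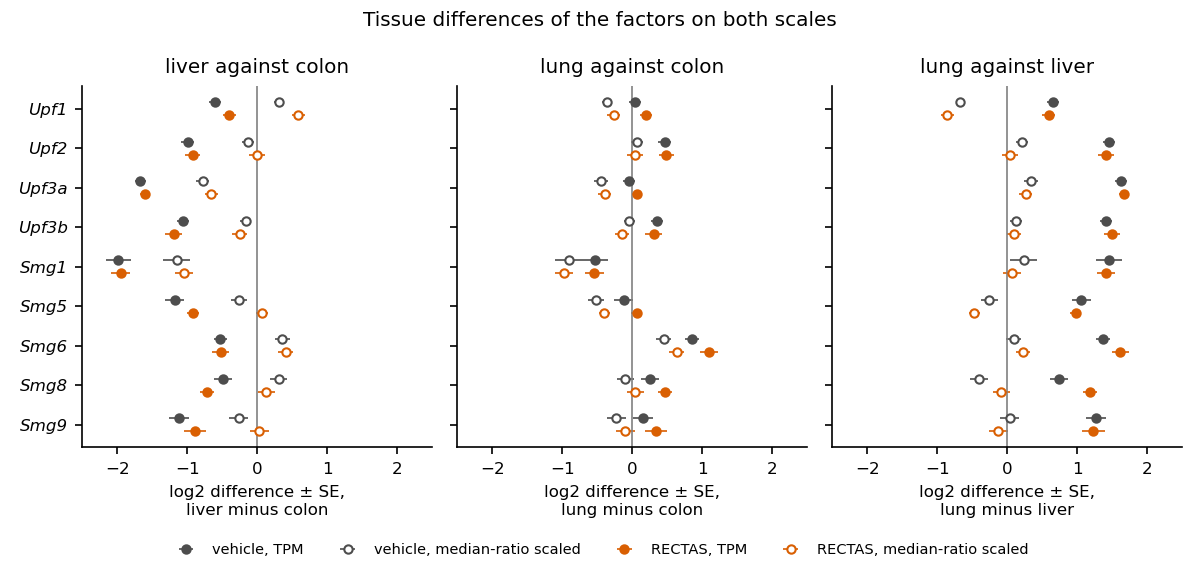
Differences between tissues for each factor, as log2 difference ± SE from limma (x axis), for vehicle (grey) and RECTAS (orange) libraries. Filled points use TPM and open points TPM after median-ratio scaling. Filled points lie left of 0 for liver against colon and right of 0 for lung against liver, and open points fall on both sides of 0. Compared with colon, Smg1 is low in liver and Smg6 is high in lung on both scales.

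Ratios within a library are free of scaling, and 4 pairs of partners were compared across tissues by an exact permutation test of the between-tissue F statistic on log2 ratios, which has no direction, with p adjusted over the 4 ratios. The smallest p this design allows is 0.00357. In vehicle libraries Upf3b to Upf3a stood at 0.814, 0.605 and 0.697 in colon, 0.926, 0.949 and 0.935 in lung and 1.23, 1.01 and 1.06 in liver. No tissue overlapped another for this pair of paralogs (adjusted p = 0.00714, exact permutation test).

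Upf2 to Upf1 averaged 0.474 ± 0.0372 in vehicle colon, 0.648 ± 0.0420 in lung and 0.343 ± 0.0404 in liver (n = 3 each, adjusted p = 0.00714, exact permutation test), with liver lowest in each of its libraries. Smg6 to Smg5, the endonuclease against the adaptor of the other effector branch, stood at 0.386, 0.353 and 0.392 in colon, 0.767, 0.718 and 0.816 in lung and 0.799, 0.584 and 0.450 in liver. Colon lay below both other tissues (adjusted p = 0.0143, exact permutation test). Smg8 to Smg9 averaged 0.407 ± 0.0370 in colon, 0.451 ± 0.1003 in lung and 0.645 ± 0.125 in liver and missed the threshold (adjusted p = 0.0571, exact permutation test, n = 3 each).

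In RECTAS libraries the exact permutation test gave adjusted p of 0.0286 for Upf3b to Upf3a, 0.0143 for Smg6 to Smg5, 0.0143 for Upf2 to Upf1 and 0.818 for Smg8 to Smg9. With 1 library left out, the vehicle call of Smg6 to Smg5 ended without any 1 of the colon or lung libraries (adjusted p 0.0571 to 0.0667), although the log2 range between tissues stayed at 0.98 to 1.07. The RECTAS call of Upf3b to Upf3a ended without 7 of the 9 libraries, RECTAS colon library 3 and each RECTAS lung and liver library (adjusted p up to 0.186), and its range was 0.25 without that colon library against 0.42. Upf2 to Upf1 under RECTAS ended without RECTAS colon library 3 or any 1 RECTAS lung library (adjusted p 0.05 to 0.0619).

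RECTAS was then compared with vehicle within each tissue. No member was called in colon, lung or liver (0 of 9 each, limma with Benjamini-Hochberg adjustment), against 0% of 14282 genes in colon, 0.00637% of 15699 in lung and 0.0167% of 11944 in liver. At an unadjusted p under 0.05 there were 0 members in colon (1.62% of genes), 2 in lung (Upf1 and Smg8, 12.6% of genes) and 1 in liver (Upf1, 11.6%). Over the 27 tests the 95% intervals of the log2 difference reached no lower than -0.49 and no higher than 0.62.

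In colon the 2 groups overlapped for all 9 genes (0 apart, against 5.44% of genes). Under RECTAS Upf1 stood at 28.8, 28.0 and 28.2 TPM and Upf2 at 13.7, 13.7 and 13.1 TPM, within the vehicle ranges given above. Upf3a stood at 27.7, 28.2 and 30.0 TPM, Smg1 at 26.3, 23.5 and 20.1 TPM and Smg5 at 37.9, 34.4 and 32.6 TPM. RECTAS colon library 3 was the lowest of all 6 colon libraries for Upf3b (22.1, 21.9 and 16.4 TPM), Smg6 (10.7, 13.5 and 10.0 TPM) and Smg9 (14.2, 13.9 and 9.87 TPM), and the highest for Smg8 (5.76, 6.22 and 7.16 TPM). The B cell markers Cd79a, Cd79b and Ms4a1 were highest in that library, at 5.95, 5.08 and 1.83 TPM, and at no more than 0.730, 0.870 and 0.220 TPM in the other colon libraries. Jchain was lowest there (24.5 TPM), and the summed B cell markers ranged over 32.0 to 93.4 TPM in vehicle and 38.5 to 105.5 TPM in RECTAS colon. The part of these markers in the values of that library was not tested. The log2 differences ran from -0.18 for Smg6 (SE 0.13) to 0.15 for Smg8 (SE 0.13), with 5 of 9 above 0 (57.2% of genes) and a median of 0.022 against 0.018 over all genes.

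In lung Upf1 was 34.3, 34.5 and 29.2 TPM under RECTAS, each above the 3 vehicle libraries (log2 difference 0.19, SE 0.078, adjusted p = 0.391 by limma). Smg8 was 8.80, 9.25 and 9.54 TPM, also above all vehicle libraries, at 9.20 ± 0.373 against 7.00 ± 1.04 TPM (1.31-fold, 0.36, SE 0.11, 95% interval 0.099 to 0.61, adjusted p = 0.311 by limma). The adaptor gene Smg5 likewise stood above vehicle, at 37.9, 36.8 and 35.03 TPM (0.21, SE 0.091, adjusted p = 0.416).

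The lung groups lay apart, RECTAS higher, for 4 members, Upf1, Upf3a (29.3, 30.4 and 30.4 TPM), Smg5 and Smg8, where 16.1% of all genes did, and for 0 members with RECTAS lower (3.18%). After median-ratio scaling 2 members lay apart on the higher side, Upf1 and Smg8 (8.77% of genes). The summed lung epithelial markers, all 5 of them detected, were lower in RECTAS lung without overlap, at 159829 to 165489 TPM against 169718 to 188885 TPM. Of the 5, Scgb1a1 alone was lower, at 114921 to 121803 TPM against 132818 to 149107 TPM. Sftpa1 (3845 to 4101 against 3141 to 3521 TPM) and Sftpc (31816 to 35899 against 28612 to 31807 TPM) were higher without overlap. Sftpb and Ager overlapped. The part of these markers in the differences of the members was not tested. The other 5 overlapped, with Upf2 at 18.9, 18.9 and 20.1 TPM, Upf3b at 24.2, 23.5 and 27.2 TPM and Smg1 at 14.6, 14.6 and 17.8 TPM. Smg6 stood at 26.0, 27.1 and 23.2 TPM and Smg9 at 17.01, 18.8 and 13.1 TPM. Differences were above 0 for 8 of 9 members, where 65.4% of genes were, with a median of 0.068 against 0.058 over all genes, and 7 were above 0 after median-ratio scaling, with a median of 0.0086.

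In liver Upf1 was 19.5, 22.1 and 22.4 TPM under RECTAS, each above all vehicle libraries, at 21.3 ± 1.61 against 17.8 ± 1.66 TPM (1.20-fold, log2 difference 0.25, SE 0.10, adjusted p = 0.423 by limma). It was the 1 member apart on the higher side, where 5.75% of genes were. Upf3b was the 1 member apart on the lower side (13% of genes), at 8.45, 8.17 and 7.89 TPM, a log2 difference of -0.19 (SE 0.081, adjusted p = 0.445 by limma). Smg5, at 16.6, 19.0 and 18.7 TPM, had the largest difference (0.29, SE 0.14, adjusted p = 0.487) and overlapped vehicle by 1 library. Without vehicle liver library 1 it was 0.14, and leaving out each library in turn gave 0.14 to 0.38. After median-ratio scaling Smg5 also lay apart, making 2 members higher (10.3% of genes) and 1 lower (8.18%).

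The remaining liver values overlapped those of vehicle. Upf2 stood at 7.99, 5.68 and 6.40 TPM, Upf3a at 8.98, 8.85 and 8.43 TPM and Smg1 at 5.82, 5.56 and 4.43 TPM. Smg6 stood at 7.66, 6.92 and 8.26 TPM, Smg8 at 3.31, 3.55 and 3.58 TPM and Smg9 at 6.32, 6.58 and 6.00 TPM. Of the 9 differences 6 were above 0, where 40% of all genes were, with a median of 0.083 against -0.038 over all genes, and 0.13 against 0.0062 after median-ratio scaling.

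**Figure D3:**
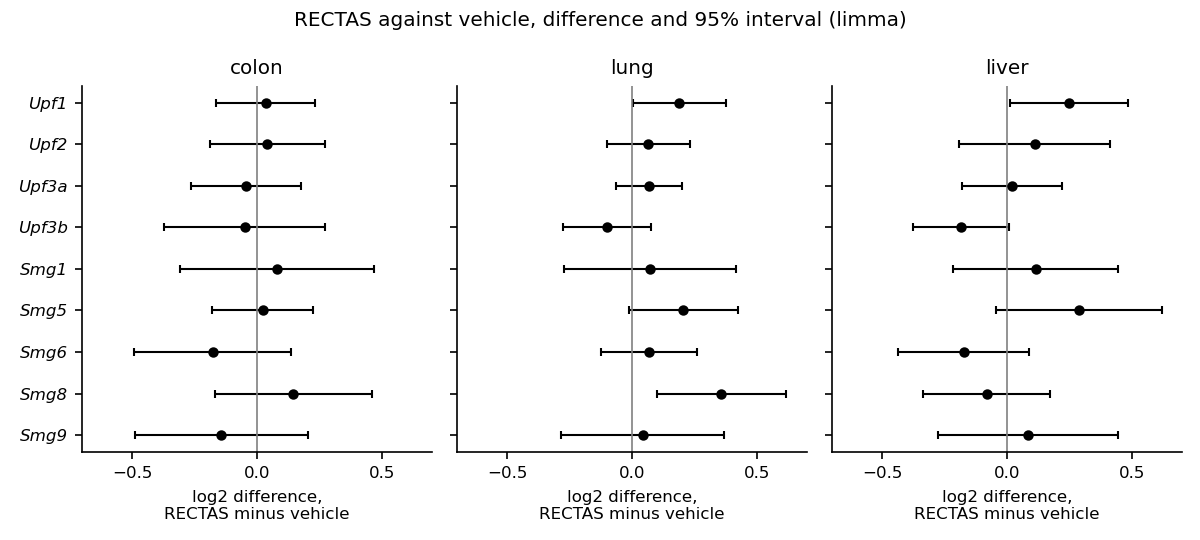
RECTAS minus vehicle for each factor in colon, lung and liver, as the log2 difference (x axis, log2(TPM + 1) scale) with its 95% interval from limma, 3 libraries per group. Intervals include 0 except for Upf1 and Smg8 in lung and Upf1 in liver, and none of these passed adjustment over all genes.

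Averaged over the 3 tissues in 1 fit of all 18 libraries, Upf1 was 0.16 higher under RECTAS (SE 0.048, adjusted p = 0.268 by limma, range over its alternatives 0.169 to 0.433). Smg5 was 0.17 higher (adjusted p = 0.387) and Smg8 0.14 higher (adjusted p = 0.492). No member was called (0 of 9, with 3 at an unadjusted p under 0.05), against 0.188% of 17537 genes called and 9.82% under the unadjusted threshold. The difference between tissues was tested as an interaction. It was largest for Smg8, whose RECTAS difference was 0.44 higher in lung than in liver (SE 0.16, adjusted p = 0.395 by limma), and no member was called in any of the 3 interactions (0 of 9 each, against 0.0285%, 0.0114% and 0.0228% of genes for liver minus colon, lung minus colon and lung minus liver). At an unadjusted p under 0.05 Smg8 was the 1 member in lung minus liver (8.98% of genes), and there were 0 members in liver minus colon (5.37%) and 0 in lung minus colon (3.22%).

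The ratio of partners was also compared between RECTAS and vehicle, a test chosen after the values were seen, by exact permutation of the treatment within tissues (8000 relabelings, two-sided, adjusted over the 4 ratios). Smg6 to Smg5 was 0.283, 0.393 and 0.307 in RECTAS colon, 0.687, 0.737 and 0.662 in RECTAS lung and 0.461, 0.365 and 0.442 in RECTAS liver. The 2 treatments overlapped in every tissue, and the RECTAS mean was lower in each, by -0.22 in colon, -0.14 in lung and -0.50 in liver on the log2 scale. The average of -0.29 had p = 0.0095 and adjusted p = 0.0380 by the exact permutation test.

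That adjusted p ended at 0.05 or above on leaving out 12 of the 18 libraries, with values between -0.35 and -0.21. These were vehicle colon libraries 1 and 3, RECTAS colon libraries 1 and 3, vehicle lung libraries 1 and 3, RECTAS lung libraries 1 and 3, vehicle liver library 1 and RECTAS liver libraries 1, 2 and 3, and the largest adjusted p was 0.126, without RECTAS liver library 2. Without vehicle liver library 1 the value was -0.21 (adjusted p = 0.0690). Because Smg6 shares exon sequence with Srr and Gm12333, its part in this ratio is subject to the limit on strand given above.

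Upf3b to Upf3a was 0.799, 0.776 and 0.547 in RECTAS colon, 0.826, 0.772 and 0.897 in RECTAS lung and 0.941, 0.923 and 0.936 in RECTAS liver. It lay below all vehicle libraries in lung and in liver and overlapped them in colon, and the average of -0.14 did not pass (adjusted p = 0.203, exact permutation test). Smg8 to Smg9 averaged 0.16 higher, but differed in sign between tissues, at 0.33 in colon, 0.36 in lung and -0.20 in liver. Upf2 to Upf1 averaged -0.083, at 0.0091 in colon, -0.13 in lung and -0.13 in liver. The adjusted p was 0.333 for both ratios by the exact permutation test.

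**Figure D4:**
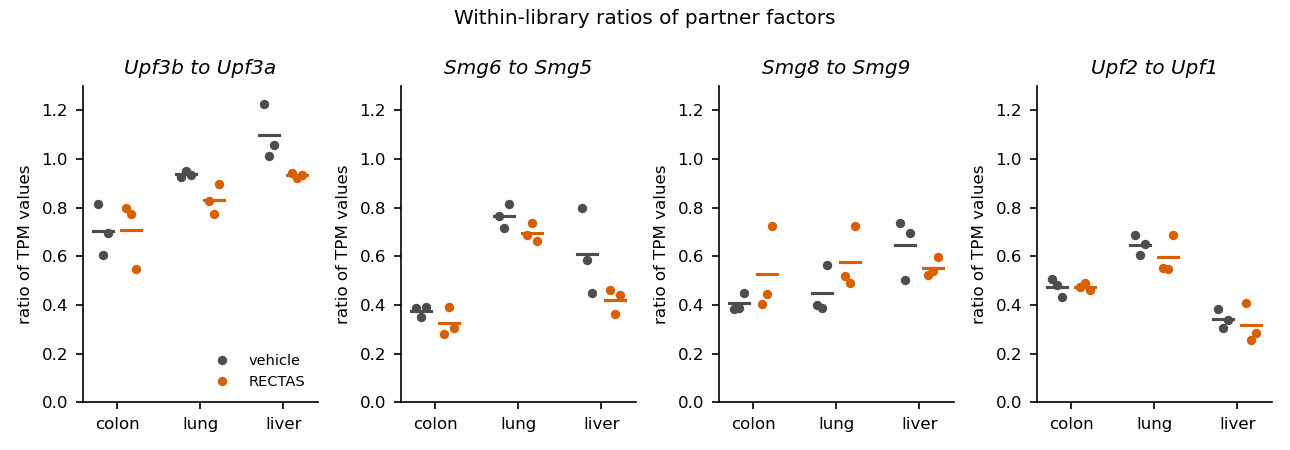
Ratios of TPM values of partner factors within each library (y axis, linear from 0) in colon, lung and liver under vehicle (grey) and RECTAS (orange). Points are libraries and bars are group means. Smg6 to Smg5 is lowest in colon by group mean, with RECTAS colon and RECTAS liver points overlapping. Upf3b to Upf3a is lowest in colon and highest in liver in vehicle libraries. RECTAS points of Smg6 to Smg5 overlap the vehicle points in each tissue.

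Other genes of the pathway were described in 5 lists, and no gene of any list was called in any tissue (0 in each, limma). Among 9 other decay factors, the difference with the smallest p was that of Stau2, encoding an RNA-binding protein of Staufen-mediated decay, in liver, at 1.78 ± 0.221 under RECTAS against 2.72 ± 0.118 TPM (-0.42, SE 0.11, adjusted p = 0.282). Stau1, which encodes another Staufen protein, stood at 50.3 ± 1.29 against 46.1 ± 2.87 TPM in lung. The list's median was 0.062 in colon, 0.048 in lung and -0.095 in liver, and after median-ratio scaling 0.055, -0.011 and -0.048. Over all genes the medians were 0.018, 0.058 and -0.038, and after scaling 0.012, 0.0020 and 0.0062.

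Exon junction complex genes, which mark spliced junctions for UPF3, had medians of 0.046, 0.077 and 0.019 in colon, lung and liver over 10 genes. The medians of all genes were 0.018, 0.058 and -0.038. After median-ratio scaling the list's medians were 0.038, 0.016 and 0.068. Pym1, which encodes a factor that disassembles the complex, stood at 11.6 ± 0.917 against 9.42 ± 0.176 TPM in liver (0.27, SE 0.087, adjusted p = 0.359 by limma) and at 19.5 ± 0.720 against 18.3 ± 0.530 TPM in colon. Acin1, which encodes an accessory subunit, stood at 153 ± 12.9 against 136 ± 7.60 TPM in lung. For termination and cap-binding genes the medians were 0.062, 0.13 and 0.066, and after median-ratio scaling 0.055, 0.068 and 0.11. Etf1 (release factor eRF1) stood at 53.3 ± 2.24 against 46.4 ± 2.59 TPM in lung (adjusted p = 0.332 by limma). Ncbp1 (a cap-binding subunit) stood at 12.1 ± 0.550 against 9.57 ± 2.12 TPM in liver and Ncbp2, its partner, at 18.8 ± 1.31 against 16.9 ± 1.68 TPM in colon.

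The mRNA decay enzymes, decapping and deadenylation factors and the exonuclease XRN1, lay below 0 in 10 of 10 genes in RECTAS liver, where 40% of all genes were above 0. None of these enzymes was called, and 0 had an unadjusted p under 0.05, where 11.6% of all genes did. Their median was -0.17 against -0.038 over all genes, and -0.13 with 10 of 10 below 0 after median-ratio scaling. Dcp2, the decapping enzyme gene, stood at 2.77 ± 0.482 against 3.67 ± 0.693 TPM in liver (-0.31, SE 0.15, adjusted p = 0.489 by limma). It was the 1 gene of the list whose liver groups did not overlap, where 13% of all genes were lower without overlap. In colon Dcp2 stood at 17.5 ± 2.05 against 14.8 ± 1.40 TPM. In lung 5 of the 10 were higher, where 65.4% of all genes were, and in colon 2 of the 10, where 57.2% were. Cnot7, a deadenylase gene, stood at 45.3 ± 2.96 against 40.3 ± 0.559 TPM in lung (adjusted p = 0.373 by limma).

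Transcripts known to be degraded by this pathway were read as a last list, since their level can move with its activity and with their own transcription. Of 13 such genes 10 were higher in colon (median 0.093), 6 in lung (median -0.0083) and 6 of 12 tested in liver (median -0.012). Of all genes 57.2%, 65.4% and 40% were higher, with medians of 0.018, 0.058 and -0.038. After median-ratio scaling 10, 5 and 7 of the list were higher, with medians of 0.086, -0.065 and 0.035. The medians of all genes were then 0.012, 0.0020 and 0.0062. Gadd45a, a growth arrest gene, stood at 67.5 ± 13.4 against 45.3 ± 7.75 TPM in colon (0.56, SE 0.17, adjusted p = 0.9999 by limma), but at 18.3 ± 1.80 against 18.8 ± 2.28 TPM in lung and 4.31 ± 1.41 against 8.78 ± 3.73 TPM in liver (-0.84, SE 0.33, adjusted p = 0.408). Atf3, a stress-induced transcription factor gene, stood at 10.9 ± 2.57 against 5.90 ± 1.26 TPM in lung (0.78, SE 0.20, adjusted p = 0.273 by limma). Snhg1, a noncoding host of small nucleolar RNAs, stood at 18.7 ± 1.43 against 24.4 ± 3.499 TPM in liver (-0.36, SE 0.12, adjusted p = 0.365 by limma). The groups did not overlap for these 3 genes in the tissues named first. Over the whole list they did not overlap for 1 gene in colon (higher), 3 higher and 1 lower in lung and 3 lower in liver, where 5.44% of all genes lay apart in colon, 16.1% higher and 3.18% lower in lung and 13% lower in liver.

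**Figure D5:**
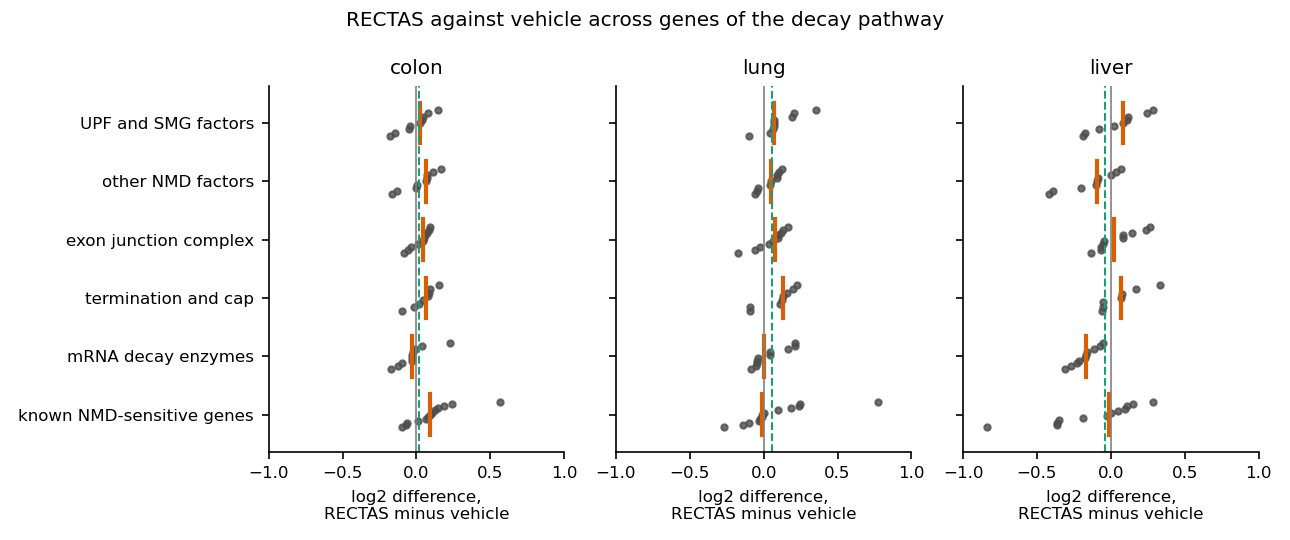
RECTAS minus vehicle as the log2 difference (x axis) for the 9 UPF and SMG factors and for 5 other lists of pathway genes in colon, lung and liver. Each point is 1 gene, the orange bar is the list median and the green dashed line the median of all genes tested. Most points lie close to 0, and the mRNA decay enzymes lie left of 0 in liver for all 10 genes.

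The pattern of the 9 genes over the 18 libraries was widely shared. The 5 protein-coding genes with the highest Pearson correlation with the members' mean standardized level were Snx17 (r = 0.996), Kif13a (0.996), Kctd10 (0.996), Inpp5a (0.995) and Ppp2cb (0.995). Compared were 5953 other protein-coding genes with at least 5 TPM in all 18 libraries. The libraries fall into 3 tissues, and 36.2% of these 5953 genes had r above 0.9 (median r 0.811). Snx17 averaged 47.4 TPM in vehicle colon, 61.9 TPM in lung and 11.5 TPM in liver. Among the members, the correlation of 1 gene with the mean of the other 8 was highest for Upf3a (r = 0.969) and lowest for Smg6 (0.812) and Smg1 (0.845), across 18 libraries that share tissues.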

How the data were processed

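Gene-level values in TPM were deposited by the authors, 1 table per library. Per the labels' protocols, RNA was extracted with TRIzol and libraries were made with a stranded mRNA kit. Per the submitters' processing notes the tools include HISAT2 2.2.0 and RSEM 1.3.0 and the build is GRCm38, with settings not given in the sources used here. TPM was analysed as log2(TPM + 1), for genes that reached 1 TPM in 3 or more libraries of a comparison. limma 3.58.1 in R 4.3.3 was fitted per tissue for RECTAS, per treatment for tissues and over 18 libraries for interactions, with Benjamini-Hochberg adjustment over all genes and a threshold of 0.05. Ratios were tested by exact permutation (Python 3.11.15, numpy 2.4.6). Scripts were tested on simulated data. The members and the gene lists were chosen with earlier results of these data known. All members were named, plus, in each other list and tissue, the gene with the smallest p, 1 of which is not reported here. Of 2 rows named Ddit3 the one with the higher mean was used. Alternatives covered pseudocounts of 0.1 and 5 TPM, no filter or 5 TPM, median-ratio scaling, rescaling without mitochondrial and the top 20 genes, 1 fit of all 18 libraries, a replicate block and leaving out each library. The test of RECTAS on ratios was added after the values were seen. Positions came from GENCODE M21, in which 55141 gene IDs matched.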

Additional observations from a re-analysis of the deposited data

How the results depend on the processing

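No member was called for RECTAS against vehicle under any alternative run, and with 3 libraries per group, unknown depth and limma's shared spread, small differences are not detectable. Of 215 member values under alternatives that kept all libraries, 212 kept their sign and their side of the threshold and 3 changed sign: without mitochondrial and top genes Smg5 was -0.0050 in colon and Smg9 -0.017 in lung, and after median-ratio scaling Smg9 was -0.015 in lung. With 1 library left out 13 of 162 changed sign, in colon over ranges of -0.016 to 0.075 for Upf1, -0.12 to 0.083 for Upf3b, -0.021 to 0.24 for Smg1, -0.036 to 0.070 for Smg5 and -0.23 to 0.014 for Smg9, in lung -0.039 to 0.21 for Smg1 and -0.062 to 0.18 for Smg9, and in liver -0.0072 to 0.21 for Upf2, -0.021 to 0.061 for Upf3a and -0.074 to 0.22 for Smg9. The averaged effect changed sign for Upf3a (-0.0092 to 0.028) and Smg9 (-0.058 to 0.046). Genes called over the whole table moved more. With 1 library left out colon gave 0 to 1, lung 0 to 4 and liver 0 to 6, and 1 fit of all 18 libraries called 1, 33 and 94. In colon a pseudocount of 0.1 TPM called 2. In liver a filter of 5 TPM called 7 and median-ratio scaling 5. For the interactions liver minus colon, lung minus colon and lung minus liver, genes called were 1, 1, 0 with a pseudocount of 0.1 TPM and 10, 4, 26 with 5 TPM, which called 51 for the averaged effect. Median-ratio scaling called 8 and 1 in the first and second of these. Leaving out a library gave 0 to 7, 1 to 9, 0 to 11 and, averaged, 14 to 56. The labels do not say whether equal replicate numbers mark paired samples, and deviations within groups of 3 libraries cannot settle it. Deviations of same-numbered treatment pairs correlated at -0.25 to 0.39 and of differently numbered ones at -0.40 to 0.41. For tissue pairs the ranges were -0.060 to 0.065 and -0.092 to 0.12. With the replicate number as a block, genes called were 0 in liver and 2, 1, 0 in the interactions, and no member was called for RECTAS. Among tissue differences of members, 331 of 378 values under alternatives with all libraries kept their direction and side, 19 lost and 4 gained the threshold and 24 changed sign, the 24 all under median-ratio scaling, which by construction removes the difference of the median gene. For liver against colon in vehicle libraries 5 members were called (12060 of 16356 genes). The reversed values were Upf1 0.31, Smg6 0.36 and Smg8 0.31. For lung against colon in vehicle libraries the reversed values were Upf1 -0.36, Upf3b -0.040, Smg8 -0.095 and Smg9 -0.23. For lung against liver in vehicle libraries 4 members were called (12545 of 16356 genes). The reversed values were Upf1 -0.67, Smg5 -0.25 and Smg8 -0.40. For liver against colon in RECTAS libraries 5 members were called (11967 of 16292 genes). The reversed values were Upf1 0.59, Smg5 0.069, Smg6 0.41, Smg8 0.13 and Smg9 0.029. For lung against colon in RECTAS libraries the reversed values were Upf1 -0.27, Upf3a -0.39, Upf3b -0.15, Smg5 -0.40 and Smg9 -0.10. For lung against liver in RECTAS libraries 3 members were called (12546 of 16292 genes). The reversed values were Upf1 -0.86, Smg5 -0.47, Smg8 -0.084 and Smg9 -0.13. With 1 library left out 473 of 486 kept both, 10 lost and 2 gained the threshold, and vehicle Upf1 changed sign between lung and colon (-0.0096 to 0.081). The log2 range of ratios between tissues ran from 0.98 to 1.07 for Smg6 to Smg5 in vehicle libraries and, in RECTAS libraries, 0.25 to 0.52 for Upf3b to Upf3a, 0.043 to 0.42 for Smg8 to Smg9 and 0.79 to 1.13 for Upf2 to Upf1, and the RECTAS effect on Smg6 to Smg5 from -0.35 to -0.21. The cause of these changes was not tested.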
